A study of Mus musculus with 7 samples.

Results

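The kinesin and dynein motor genes were taken as all probes whose platform gene symbol began with Kif or Klc followed by a digit, or with Dync, Dynl, Dctn or Dnah, or was Pafah1b1, Nde1, Ndel1, Bicd1 or Bicd2. This rule took 94 of the 25697 probes on the array, which stand for 56 of its 16593 named genes, and Bicd1 had no probe under that symbol. The probes were read on Illumina BeadArrays hybridised with biotin-labelled cRNA made from total brain RNA. One group held 4 wild-type male mice and the other 3 males homozygous for the allele that the labels name ko, of the gene region encoding the Duf1220 domain. All 7 mice were of strain C57BL/6J and 21 weeks of age, each array came from a mouse of its own, and the labels name no treatment, transgene or Cre. The labels do not state which exons the allele removes or which part of the brain was taken. The comparison asks which brain transcripts differ between mice with and without the domain. In the mouse the domain belongs to myomegalin, the product of Pde4dip, a protein of the centrosome and the Golgi apparatus, from which microtubules grow.

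Kinesins and dyneins are motor proteins that burn ATP to walk along microtubules. Most kinesins carry cargo towards the growing plus end, which in an axon points to the synapse, and cytoplasmic dynein 1 carries cargo back to the cell body with the help of the dynactin complex. A separate set of kinesins builds and drives the mitotic spindle in dividing cells, and axonemal dyneins and dynein 2 serve cilia, which in the brain are carried by ependymal cells as motile tufts and by most neurons as single sensory cilia. An adult brain consists largely of cells that no longer divide. The members were described by role, as axonal kinesins with their light chains (12 genes on the array), mitotic kinesins (10 genes), ciliary motors (9 genes), kinesin-2 subunits that serve both axons and cilia (3 genes), cytoplasmic dynein 1 subunits (10 genes), dynactin subunits (6 genes) and dynein regulators (4 genes). The remaining 2 members, Kif2a and Kif12, were kept apart.

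Values are normalized intensities as the authors deposited them, and readings under 16 were set to 16 before log2 values were taken. Lists of intensities below give wild-type arrays 1 to 4 and then knockout arrays 1 to 3, in that order. A probe was tested where it read above 16 on at least 3 of the 7 arrays, which held for 12833 probes, 49.9% of the array. Each array had between 12566 and 12581 probes above 16. Wild-type arrays 2 and 3 stood apart from the other arrays over the whole set of tested probes. The mean correlation with the other arrays over tested probes, which are not independent replicates, was 0.932 for wild-type array 2, 0.970 for wild-type array 3 and 0.976 to 0.981 for the other 5. Wild-type array 2 was the highest or the lowest of all 7 arrays at 66.1% of tested probes. A difference is therefore followed by its leave-out values, meaning the same log2 difference first without wild-type array 2 and then without wild-type arrays 2 and 3. The targeted gene was read at its brightest probe, ILMN_3064283, with intensities of 2228, 2502, 2198 and 2157 in the wild-type mice and 1233, 1442 and 1498 in the knockout mice. Every knockout array lay below every wild-type array there, the log2 difference was -0.71 (SE 0.15), the exact permutation p was 0.0286, the smallest possible, and the limma adjusted p over all probes was 0.754. The position of that probe with respect to the deletion was not analysed here.

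Motors of axonal transport were read above 16 and most motors of cell division were not. Of the 12 axonal genes 10 were measured, as were 9 of 10 dynein 1 genes, all 6 dynactin genes, all 4 regulators and 2 of 3 shared kinesin-2 genes. Of the 10 mitotic genes 1 was measured, Kif22, which encodes a chromosome-arm kinesin. All 16 probes of the other 9 mitotic genes stayed under 16 on every array, between -5.53 and 13.8, and so were not measured above the floor. Those genes were Kif11, which slides spindle microtubules apart, Kif2b and Kif2c, which shorten microtubules at kinetochores, and Kif4, Kif15, Kif18a, Kif18b, Kif20a and Kif23. Of the 9 ciliary genes 3 were measured, namely Dync2li1, a light intermediate chain of dynein 2, Dynlrb2, a light chain of the roadblock family, and Kif27, a kinesin of motile cilia. The axonemal dynein heavy chain genes Dnah2, Dnah5, Dnah8 and Dnah11, as well as Kif9 and Kif24, were not measured. Outside those roles, Kif5b, Kif1c, Kif17, Kif12 and the light chain gene Dynlt1b were not measured either. In brain RNA of mixed cells, fewer cells of a type and less RNA per cell cannot be told apart.

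The probes that missed the filter lay close to it in a few cases. Kif17, a dendritic kinesin that also enters cilia, read 22.4 on wild-type array 3 at probe ILMN_2704842, and elsewhere from 4.23 to 15.2. Kif5b, the conventional kinesin heavy chain found in most tissues, read 22.0 on wild-type array 2 at probe ILMN_2660650, and elsewhere from 5.03 to 11.0. Dnah11 passed 16 on knockout array 3 alone, at 16.6, and a further Kif27 probe passed it on wild-type arrays 2 and 4. The remaining 31 probes that were not tested stayed under 16 on all 7 arrays. Probes differ in how well they bind, so a low reading at a probe does not order its gene's transcript below that of another gene.

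**Figure D1:**
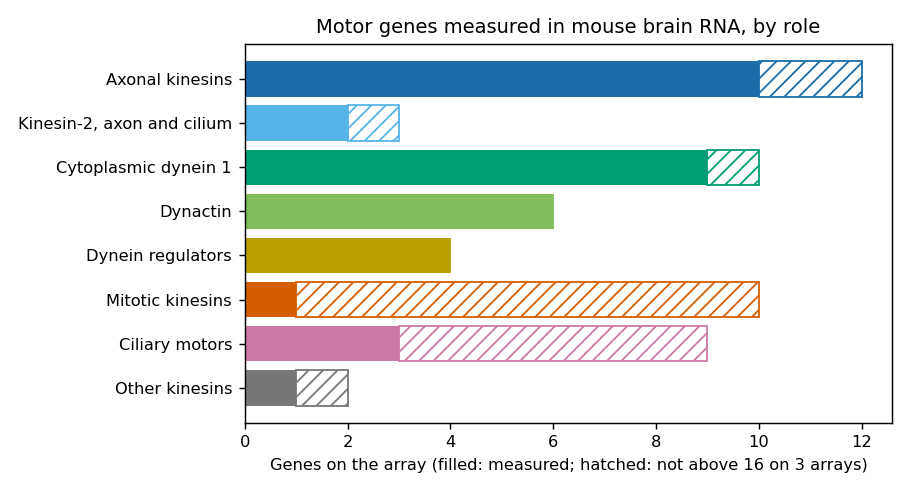
Number of motor genes on the array by role, with filled bars for measured genes (intensity over 16 in 3 or more of the mice) and hatched bars for the rest. Measured genes number 10 of 12 among axonal kinesins, 1 of 10 among mitotic kinesins and 3 of 9 among ciliary motors.

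Markers of dividing cells and of ciliated ependyma were measured in part, as were the motors of those cells. Of the 13 proliferation markers on the array 5 were measured (Prc1, Cdc20, Bub1b, Plk1 and Birc5), and their highest reading was 51.7, for Cdc20 on wild-type array 2. Top2a and Cdk1, which mark cells in the division cycle, were among the 8 that were not measured. Of 13 ependymal markers 7 were measured, among them Rsph1, a part of the radial spoke of motile cilia, with intensities of 331, 279, 307 and 272 in the wild-type mice and 272, 269.6 and 272 in the knockout mice. Foxj1, the transcription factor of motile cilia, was not measured. Of the markers of the other brain cell types, 11 of 13 neuronal, 9 of 9 oligodendrocyte, 9 of 9 astrocyte, 8 of 9 microglial and 7 of 7 choroid plexus genes were measured, so defining genes of each of these cell types were read above the floor.

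Of the 9 promoters of mitotic genes, 7 held a sequence motif that the choice of members had not used, and 4 promoters are shown that hold a match of either kind or none. The cell cycle homology region is the site through which the DREAM complex keeps genes of division silent in resting cells, and it was searched as TTTGAA or TTCGAA on both strands, so that TTCAAA in a printed strand is a match on the other. The RFX factors switch on genes of cilia, and 1 arm of their binding site was searched as GTTGCC on both strands. The windows ran from 250 bases before to 50 bases after each RefSeq transcript start in GRCm38.p6, and 47 of the 56 genes had one. The 250 bases before the start are printed 5′ to 3′ in the direction of the gene, with every match to either motif in capitals.
Kif11, chr19:37376132-37376381, plus strand: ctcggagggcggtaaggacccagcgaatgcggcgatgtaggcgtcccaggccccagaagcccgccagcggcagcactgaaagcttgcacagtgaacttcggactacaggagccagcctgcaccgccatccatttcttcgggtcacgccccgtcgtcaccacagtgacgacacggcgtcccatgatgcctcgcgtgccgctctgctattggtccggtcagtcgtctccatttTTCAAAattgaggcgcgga
Kif22, chr7:127042421-127042670, minus strand: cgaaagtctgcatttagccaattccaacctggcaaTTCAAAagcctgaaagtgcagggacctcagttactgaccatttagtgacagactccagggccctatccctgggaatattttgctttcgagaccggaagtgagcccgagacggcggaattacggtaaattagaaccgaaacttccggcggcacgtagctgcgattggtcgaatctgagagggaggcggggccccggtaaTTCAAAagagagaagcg
Dynlrb2, chr8:116504765-116505014, plus strand: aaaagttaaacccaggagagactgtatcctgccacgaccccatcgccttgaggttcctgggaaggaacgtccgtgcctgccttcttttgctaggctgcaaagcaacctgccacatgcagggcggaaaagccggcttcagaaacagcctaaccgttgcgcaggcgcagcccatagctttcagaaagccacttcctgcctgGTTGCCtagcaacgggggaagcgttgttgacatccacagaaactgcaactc
Kif5c, chr2:49619036-49619285, plus strand: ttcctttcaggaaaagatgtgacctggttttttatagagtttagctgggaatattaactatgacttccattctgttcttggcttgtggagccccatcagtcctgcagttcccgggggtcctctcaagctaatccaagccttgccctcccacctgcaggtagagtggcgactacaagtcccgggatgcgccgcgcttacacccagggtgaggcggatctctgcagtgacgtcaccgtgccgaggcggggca
A cell cycle homology region match lay in 7 of 9 mitotic promoters (77.8%), in 1 of 12 axonal promoters (8.33%), in 3 of 9 ciliary promoters (33.3%) and in 19.2% of all 32851 promoters in the table. The first base of the match nearest to the start stood at -19 from the start in Kif11 and Kif15, at -17 in Kif22, at 3 in Kif23, at 4 in Kif18b and at 20 in Kif4. In Kif2c it stood at -103. No match lay within the window of Kif18a or Kif2b. Thus Kif22, which was read above 16, and Kif11, which was not, both held a match close to their start. The axonal match was in Kif1a, at -44. A match to the RFX motif lay in 4 of 9 ciliary promoters (44.4%), those of Dynlrb2, Kif24 and both starts of Kif9, in 3 of 12 axonal and 2 of 9 mitotic promoters (22.2%), and in 12.5% of all promoters. Kif3a and Kif17, which serve cilia as well, held one too, at -98 and -73, and so did 4 of 9 dynein 1 promoters. A match is a run of letters in a window and was not tested as a site.

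**Figure D2:**
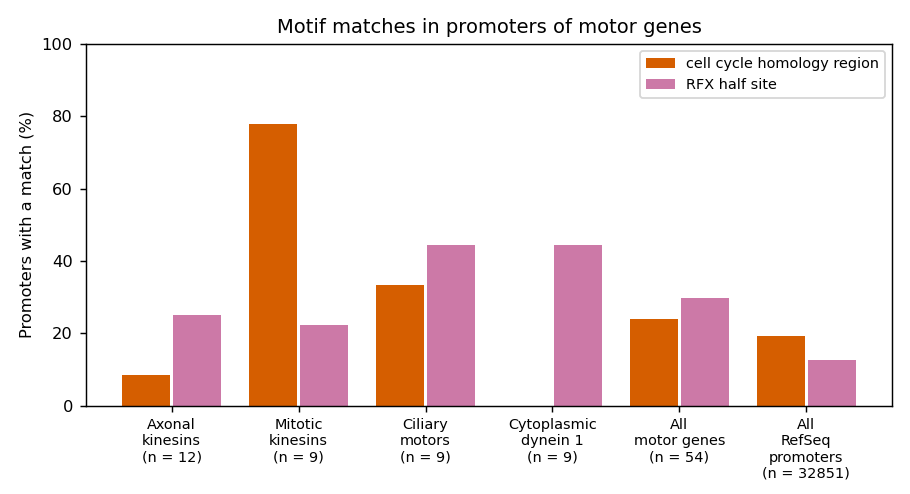
Share of promoters, in percent, with a match to the cell cycle homology region (orange) or to GTTGCC, a single arm of the RFX binding site (pink), for 4 role lists, all motor genes and all RefSeq promoters, with the number of promoters under each pair of bars. The mitotic bar for the cell cycle homology region reaches 77.8% beside 19.2% of all promoters.

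Between the genotypes, no motor gene differed at an adjusted p under 0.05 in the limma fit, a threshold passed by 0% of all tested probes. For each of the 36 measured genes the probe with the highest mean stood for the gene. Of these, 24 genes had a higher and 12 a lower mean in knockout, where 53.1% of all tested probes were higher. Their median log2 difference was 0.10, beside 0.02 over all tested probes. At an unadjusted p under 0.05 there was 1 gene of 36, Dynll2, lower in knockout, beside 4.2% of all tested probes in either direction. In the lower direction 1.99% of all tested probes passed and in the higher direction, with 0 motor genes, 2.21%. A single gene is too few to set apart from those shares. Complete separation of the 2 groups held for 3 of 59 tested motor probes, beside 7.39% of all tested probes. Those were probe ILMN_2671411 of Klc1, 1 of 2 probes of Dctn3 and 1 of 6 probes of Kif1b. The median differences of the 3 roles were 0.12 over 10 axonal genes, -0.03 over 3 ciliary genes and 0.38 for the single mitotic gene. Without wild-type array 2 they were 0.02, -0.11 and 0.07, and without wild-type arrays 2 and 3 they were -0.01, -0.10 and -0.20. Over all 36 genes the median without both arrays was 0.02, with 21 higher and 15 lower.

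**Figure D3:**
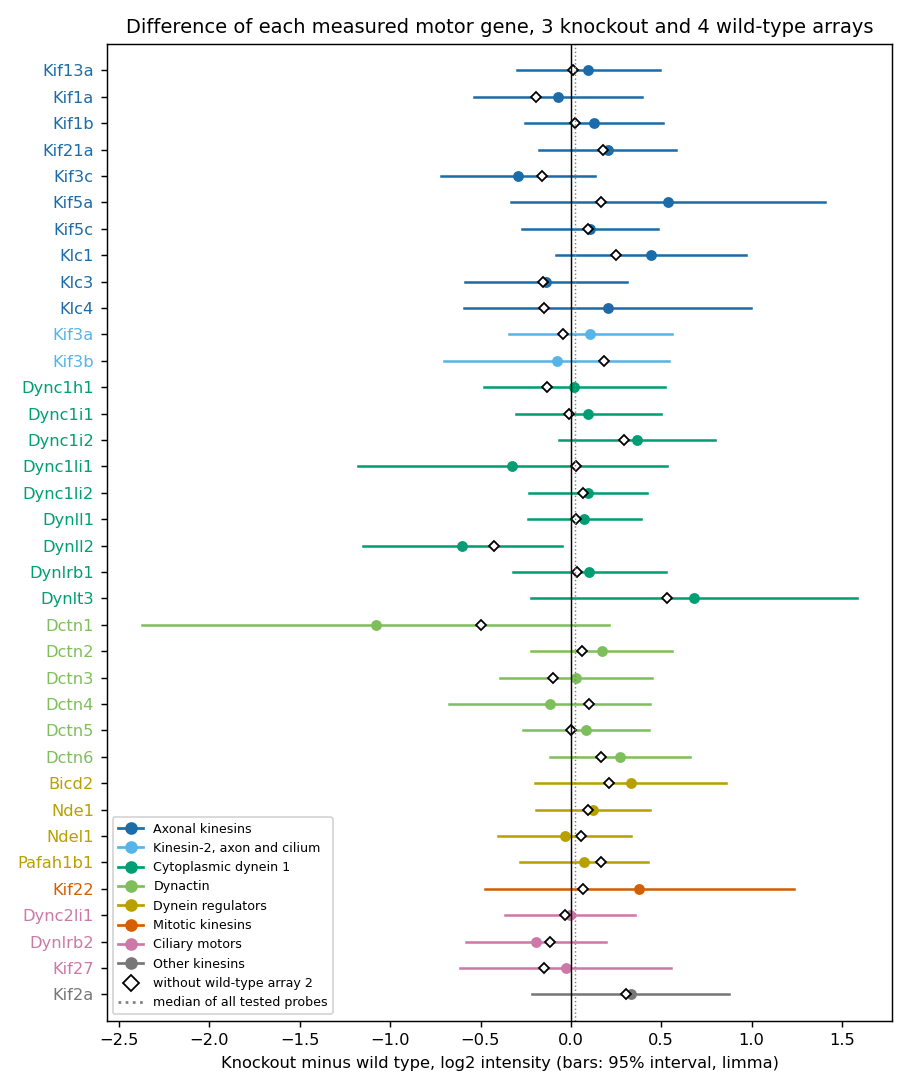
Log2 difference, knockout minus wild type, for the 36 measured motor genes grouped by role (filled points, with 95% intervals from limma over 4 wild-type and 3 knockout arrays), and the same difference without wild-type array 2 (open diamonds). Of the 36 intervals, that of Dynll2 lies below 0 (-1.15 to -0.05) and the others cross 0.

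Among the axonal motors 7 genes had a higher and 3 a lower mean in knockout, and 0 of 10 passed an unadjusted p of 0.05. Klc1 encodes a kinesin light chain, the subunit that binds cargo for the Kif5 heavy chains. Its intensities at probe ILMN_2671411 were 6485, 3666, 5494 and 7018 in the wild-type mice and 7607, 7780.3 and 7061 in the knockout mice. The 3 knockout readings lay above all 4 wild-type readings, of which wild-type array 2 was the lowest. The log2 difference was 0.44 (SE 0.23, leave-out values 0.25 and 0.15, limma unadjusted p = 0.089, adjusted p = 0.754). The differences of all 5 Klc1 probes ran from 0.04 to 0.44. Without wild-type array 2 that of probe ILMN_3163020 was -0.10 and that of ILMN_3116826 0.04, so the 5 probes no longer shared a sign. Kif5a is the neuronal conventional kinesin heavy chain, which carries neurofilaments and mitochondria. At probe ILMN_3065852 it read 5376, 1744, 3918 and 5653 in the wild-type mice and 5989, 5321 and 5266 in the knockout mice. Wild-type array 2 was the lowest and wild-type array 3 next, and wild-type arrays 1 and 4 lay among the knockout readings. The difference was 0.54 (SE 0.38, adjusted p = 0.754), 0.16 without wild-type array 2 and 0.000755 without wild-type arrays 2 and 3. At its dimmer probes the difference was 0.05 (SE 0.16, leave-out values 0.02 and -0.11) and -0.09 (SE 0.16, leave-out values -0.06 and -0.16).

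The third gene with a higher mean by the same ranking was Kif21a, a kinesin of growing axons, with intensities of 762, 644, 558 and 778 in the wild-type mice and 790.2, 746 and 810.2 in the knockout mice. The groups overlapped, and the difference was 0.20 (SE 0.16, leave-out values 0.18 and 0.02, adjusted p = 0.754). Kif5c, the other neuronal heavy chain, differed by 0.10 (SE 0.16, leave-out values 0.10 and -0.06), Kif13a, which moves endosomes, by 0.10 (SE 0.17, leave-out values 0.01 and 0.10) and the light chain gene Klc4 by 0.20 (SE 0.35, leave-out values -0.15 and -0.20). Klc4 read 79.4 in wild-type mouse 2 and 183 to 232 elsewhere. Of the genes with a lower mean, Kif3c, a neuronal kinesin-2 subunit, read 2217, 3173, 2397 and 2004 in the wild-type mice and 2046, 1786 and 2082 in the knockout mice. Its difference was -0.29 (SE 0.19, leave-out values -0.16 and -0.10, adjusted p = 0.754), with -0.11 (SE 0.17, leave-out values -0.11 and 0.04) at its other probe. Kif1a, the carrier of synaptic vesicle precursors, read 406, 298, 513 and 346 in the wild-type mice and 351, 346 and 400.0 in the knockout mice. Its groups overlapped and the difference was -0.07 (SE 0.20, leave-out values -0.19 and -0.04). Klc3 lay near the floor, at 9.34, 18.9, 25.1 and 18.9 in the wild-type mice and 16.3, 21.2 and 11.1 in the knockout mice, with a difference of -0.14 (SE 0.20, leave-out values -0.15 and 0.02). On wild-type array 1 and knockout array 3 it read under 16 and was set to the floor.

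Kif1b showed how far the probes of 1 gene can part on a single array. The gene encodes a carrier of mitochondria and of synaptic vesicle precursors, made in several isoforms, and 6 probes were tested. At the brightest, ILMN_2670778, the intensities were 5972, 4075, 5211 and 5326 in the wild-type mice and 5368, 5446 and 5915 in the knockout mice, and the difference was 0.13 (SE 0.17, leave-out values 0.02 and -0.02). At probe ILMN_3108623 they were 22.7, 164, 16.7 and 16.5 in the wild-type mice and 5.70, 7.96 and 14.7 in the knockout mice. On wild-type array 2 this probe read 164, and on no other array more than 22.7. It passed the filter through the wild-type group, since no knockout array exceeded 16, so its separation of the groups is not read as a difference. Its difference of -0.99 (SE 0.73, adjusted p = 0.754) was -0.20 without wild-type array 2. The log2 ratio of this probe to the brightest in the same mouse was -4.64 in wild-type mouse 2, against -8.34 to -8.04 in the other wild-type mice, and has no measured value in the knockout mice, where the probe stayed under 16. At the other 4 probes, wild-type array 2 was the highest reading as well, and their differences ran from -0.35 to 0.07, or from -0.19 to 0.21 without that array. These probes were singled out after their values had been seen.

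The shared kinesin-2 subunits Kif3a and Kif3b form the motor that carries cargo in axons and moves particles along the ciliary axoneme. Kif3a read 1533, 1077, 1874 and 1517 in the wild-type mice and 1595, 1542 and 1623 in the knockout mice at probe ILMN_2621148. Its difference was 0.11 (SE 0.20, leave-out values -0.04 and 0.06, adjusted p = 0.861). At its other probe, ILMN_2765513, the intensities were 649.8, 1585, 832 and 369 in the wild-type mice and 444, 435 and 789 in the knockout mice, and the difference was -0.49 (SE 0.45, leave-out values -0.13 and 0.13). On wild-type array 2 the first probe was at its lowest and the second at its highest. The ratio of the second to the first on that array was 0.56 on the log2 scale, against -2.04 to -1.04 on the other 6. Kif3b had readings of 30.7, 63.3, 31.1 and 30.3 in the wild-type mice and 32.7, 37.9 and 33.9 in the knockout mice. Wild-type array 2 was above every other array, and the difference was -0.08 (SE 0.27, leave-out values 0.18 and 0.19), so its sign turned without that array.

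Of the 9 measured dynein 1 genes, 7 had a higher and 2 a lower mean in knockout, with a median of 0.09. Dynll2 encodes a light chain of the LC8 family, which joins dynein to many other proteins and is also part of myosin V. At probe ILMN_2609052 its intensities were 294, 423, 258 and 229 in the wild-type mice and 195, 157 and 235 in the knockout mice. The 2 groups overlapped by a single pair, since knockout array 3 exceeded wild-type array 4. The log2 level was 8.19 ± 0.38 (SD, n = 4) without the allele and 7.59 ± 0.29 (SD, n = 3) with it. The difference was -0.60 (SE 0.24, 95% interval -1.15 to -0.05), a level 1.52-fold lower. The limma unadjusted p was 0.0355 and the adjusted p over all probes 0.754, and the exact permutation p was 0.0857, where the smallest that 35 splits allow is 0.0286. Its dimmer probe, near the floor, read 24.5, 18.8, 24.2 and 28.6 in the wild-type mice and 19.5, 17.4 and 21.3 in the knockout mice. The difference there was -0.30 (SE 0.18, leave-out values -0.41 and -0.46), in the same direction. Its unadjusted limma p was 0.132, and 0.0161 and 0.0137 in the leave-out fits. For the brighter probe the difference without wild-type array 2 was -0.43 at an unadjusted limma p of 0.0439, and without wild-type arrays 2 and 3 it was -0.43 at 0.0719. Dynll1, the close relative of Dynll2, read 5302, 4546, 5203 and 5122 in the wild-type mice and 5272, 5182 and 5453 in the knockout mice, with a difference of 0.07 (SE 0.14, leave-out values 0.03 and 0.02, 95% interval -0.24 to 0.39). Whether the differences of the 2 light chain genes differ from each other was not tested.

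Dynlt3, a light chain of the Tctex1 family, had intensities of 1059, 486, 352 and 1077 in the wild-type mice and 959, 1158 and 1089 in the knockout mice. Wild-type arrays 2 and 3 were low, and wild-type arrays 1 and 4 lay among the knockout readings. The difference was 0.68 (SE 0.39, leave-out values 0.53 and -0.0038, adjusted p = 0.754). Dync1i2, an intermediate chain that links the motor to dynactin, read 3139, 2326, 2251 and 3339 in the wild-type mice and 3639, 3728 and 3189 in the knockout mice. Wild-type arrays 2 and 3 were again the lowest, wild-type array 4 exceeded knockout array 3, and the difference was 0.37 (SE 0.19, leave-out values 0.29 and 0.12, adjusted p = 0.754). The light intermediate chain gene Dync1li2 read 319.6, 263, 268 and 273 in the wild-type mice and 316, 286 and 296 in the knockout mice, a difference of 0.09 (SE 0.14, leave-out values 0.06 and 0.02). Its relative Dync1li1 read 30.9, 68.1, 27.3 and 20.2 in the wild-type mice and 21.8, 27.3 and 30.3 in the knockout mice, and wild-type array 2 stood above all others. The difference was -0.32 (SE 0.37, leave-out values 0.03 and 0.07). Dync1h1, the heavy chain that holds the motor, differed by 0.02 (SE 0.22, leave-out values -0.13 and 0.03, 95% interval -0.48 to 0.52), Dync1i1, the neuronal intermediate chain, by 0.10 (SE 0.18, leave-out values -0.01 and 0.03) and the roadblock light chain gene Dynlrb1 by 0.10 (SE 0.19, leave-out values 0.03 and 0.03).

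**Figure D4:**
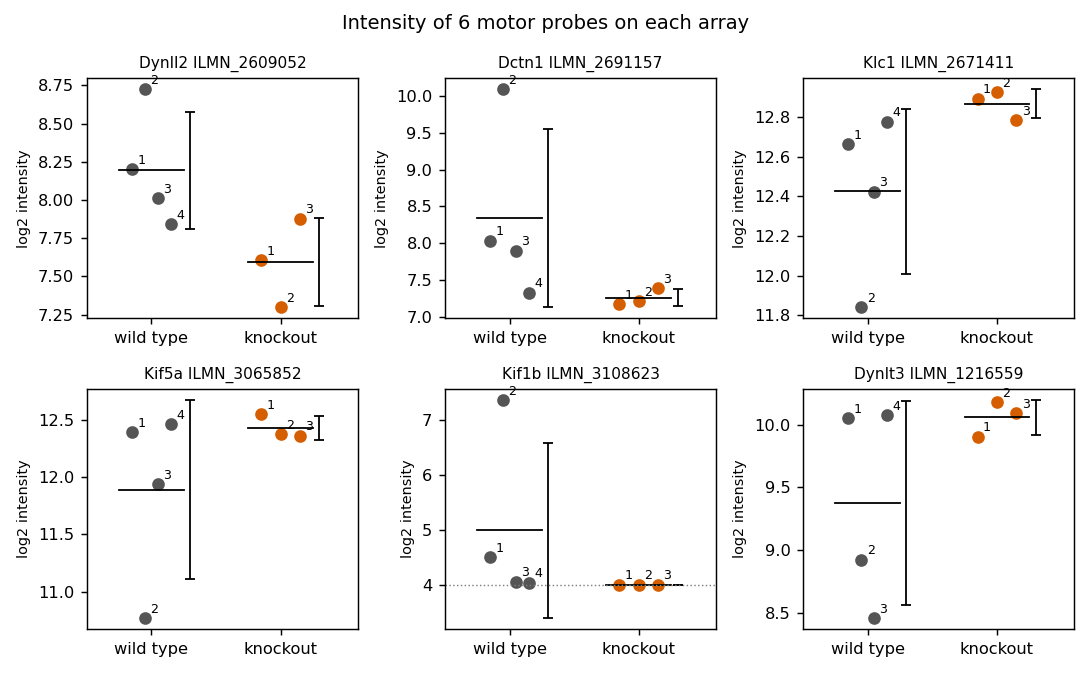
Log2 intensity on each array (points numbered by array within its group) of 6 motor probes, with the group mean as a line and the SD as a bar beside it, for 4 wild-type and 3 knockout arrays. Wild-type array 2 is the highest wild-type point for Dynll2, Dctn1 and the Kif1b probe and the lowest for Klc1 and Kif5a. The dotted line marks the floor at a log2 intensity of 4.

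Dynactin is the complex that lets dynein 1 run over long distances, and all 6 of its subunit genes on the array were measured, 4 with higher and 2 with lower means in knockout. Dctn1 encodes p150Glued, the arm that binds dynein and the microtubule, and its intensities at its only probe were 263, 1089, 239 and 161 in the wild-type mice and 144, 149 and 168 in the knockout mice. Wild-type array 2 stood far above the rest, and wild-type array 4 fell between knockout arrays 2 and 3. The difference was -1.08 (SE 0.57, leave-out values -0.50 and -0.42, unadjusted limma p = 0.0905, adjusted p = 0.754, exact permutation p = 0.114). Without wild-type array 2 it was -0.50 (SE 0.19) at an unadjusted limma p of 0.0353 and an adjusted p of 0.796. Dctn4, a subunit of the pointed-end cap, read 1160.2, 2013, 1013 and 1152 in the wild-type mice and 1088, 1323 and 1157 in the knockout mice, and its difference was -0.12 (SE 0.24, leave-out values 0.10 and 0.04). At the dimmer Dctn4 probe the difference was -0.46 (SE 0.33, leave-out values -0.40 and 0.05).

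The shoulder subunit gene Dctn2, whose product dynamitin takes the complex apart when overproduced, read 5036, 3669, 4421 and 5415 in the wild-type mice and 5286, 5195 and 5007 in the knockout mice. Its difference was 0.17 (SE 0.17, leave-out values 0.06 and -0.02), with 0.20 (SE 0.25, leave-out values -0.03 and -0.05) at a further bright probe and -0.19 (SE 0.29, leave-out values -0.46 and -0.54) at a dim one. At the dim probe, near the floor, the unadjusted limma p was 0.527, and 0.0207 and 0.0133 in the leave-out fits. Its adjusted limma p without wild-type array 2 was 0.796. In those leave-out fits 5.33% and 4.04% of all tested probes passed an unadjusted p of 0.05. Dctn6, a pointed-end subunit gene, read 976, 784, 1054 and 1112 in the wild-type mice and 1241, 1241 and 1054 in the knockout mice, and its difference was 0.27 (SE 0.17, leave-out values 0.17 and 0.17, adjusted p = 0.754). Dctn5, also of the pointed end, read 1873, 1559, 2114 and 1909 in the wild-type mice and 1956, 1975 and 1962 in the knockout mice. Its knockout readings lay within the wild-type range, with a difference of 0.08 (SE 0.15, leave-out values 0.00143 and 0.06). The probes of Dctn3 disagreed. The brighter differed by 0.03 (SE 0.18, leave-out values -0.10 and -0.01), and the dimmer, ILMN_1227925, read 1269.6, 1246, 1645 and 1172 in the wild-type mice and 1158, 995 and 934 in the knockout mice. There every knockout array lay below every wild-type array, with a difference of -0.37 (SE 0.17, leave-out values -0.40 and -0.25, unadjusted limma p = 0.0628, adjusted p = 0.754, exact permutation p = 0.0571). Its unadjusted limma p was 0.0434 and 0.0993 in the leave-out fits. Taken mouse by mouse, the log2 ratio of the dimmer to the brighter Dctn3 probe ran from -0.98 to -0.41 in wild type, and all 3 knockout ratios were lower, down to -1.19. This probe was singled out after its values had been seen.

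The regulators switch dynein on or tie it to cargo, and 3 of the 4 had higher means in knockout. Bicd2, an adaptor that recruits dynein and dynactin to Golgi-derived vesicles, read 704, 457, 461 and 789.9 in the wild-type mice and 709, 815 and 689 in the knockout mice. Wild-type arrays 2 and 3 were low, and the difference was 0.33 (SE 0.23, leave-out values 0.21 and -0.02, adjusted p = 0.754), with 0.35 (SE 0.27, leave-out values 0.16 and -0.08) at the other probe. Pafah1b1 encodes LIS1, whose loss smooths the cerebral cortex, and read 239.8, 307, 229 and 240.1 in the wild-type mice and 259, 267 and 269 in the knockout mice, a difference of 0.07 (SE 0.15, leave-out values 0.17 and 0.14), with 0.35 (SE 0.23, leave-out values 0.26 and 0.06) at its dimmer probe. Nde1 and Ndel1 encode partners of LIS1. Nde1 read 184, 173, 182 and 187 in the wild-type mice and 218, 193 and 182 in the knockout mice, with a difference of 0.12 (SE 0.14, leave-out values 0.10 and 0.09) and values of -0.03 (SE 0.16, leave-out values -0.09 and 0.01) and -0.45 (SE 0.26, leave-out values -0.48 and -0.30) at its other probes. Ndel1 had intensities of 2106, 2643, 2176 and 1865 in the wild-type mice and 2248, 2001 and 2142 in the knockout mice and a difference of -0.03 (SE 0.16, leave-out values 0.06 and 0.10, 95% interval -0.40 to 0.33).

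Kif22 was the single mitotic gene with a measured comparison, at 173, 57.9, 94.97 and 159 in the wild-type mice and 166, 161 and 113 in the knockout mice. Wild-type array 2 was lowest and wild-type array 1 highest, so the knockout readings lay within the wild-type range. The difference was 0.38 (SE 0.37, 95% interval -0.48 to 1.24, adjusted p = 0.764), 0.07 without wild-type array 2 and -0.20 without wild-type arrays 2 and 3. Among the ciliary motors all 3 measured genes had lower means in knockout by small amounts. Dynlrb2 read 135, 165, 136 and 127 in the wild-type mice and 103, 128 and 139 in the knockout mice, a difference of -0.19 (SE 0.17, leave-out values -0.11 and -0.10, 95% interval -0.58 to 0.19, adjusted p = 0.755). Dync2li1 read 216, 207, 202 and 259 in the wild-type mice and 211, 247 and 202 in the knockout mice, a difference of -0.01 (SE 0.16, leave-out values -0.03 and -0.11, 95% interval -0.37 to 0.36). Kif27 read 22.1, 20.5, 32.4 and 33.4 in the wild-type mice and 22.5, 21.8 and 35.5 in the knockout mice, near the floor, with a difference of -0.03 (SE 0.26, leave-out values -0.15 and -0.07). In each of the 3 the groups overlapped. Kif2a, a microtubule-shortening kinesin used in both axons and spindles, differed by 0.33 (SE 0.24, leave-out values 0.30 and 0.01). With 1 mitotic and 3 ciliary genes measured, no test between the roles was made.

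The motor genes varied more among the wild-type arrays than among the knockout arrays. The median SD of log2 intensity over the 36 genes was 0.29 among 4 wild-type arrays and 0.12 among 3 knockout arrays, beside 0.33 and 0.14 over all tested probes, and without wild-type array 2 the wild-type value was 0.18 beside 0.21. Wild-type array 2 lay beyond all other arrays at 29 of the 36 genes, 80.6%, beside 66.1% of all tested probes. It was the lowest at 20 genes and the highest at 9. Of the 10 axonal genes it was lowest at 6 and highest at Kif3c. The genes at which it was highest were Kif3b, Kif3c, Dync1li1, Dynll2, Dctn1, Dctn4, Ndel1, Pafah1b1 and Dynlrb2. Averaged over the 10 axonal genes, the deviation from each gene's 7-array mean was 0.10, -0.40, 0.03 and 0.06 in the wild-type mice and 0.07, 0.06 and 0.08 in the knockout mice. The second wild-type mouse was thus the only one below 0. The same mean over 11 neuronal markers was -0.22 in that mouse, against -0.01 to 0.12 in the others. Over 8 microglial markers it was -0.42 there, against -0.06 to 0.27 in the others. Over 9 astrocyte markers it was 0.29 there, against -0.19 to 0.11 in the others. Over 7 choroid plexus markers it was 0.18, against -0.26 to 0.16. Over the oligodendrocyte, ependymal and proliferation markers it was 0.04, -0.05 and -0.11, within the range of the other mice. Single markers also went against their list, since Rbfox3, Eno2 and Cx3cr1 were highest and S100b lowest on wild-type array 2. The part of cell makeup in the motor readings of this array was not tested.

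**Figure D5:**
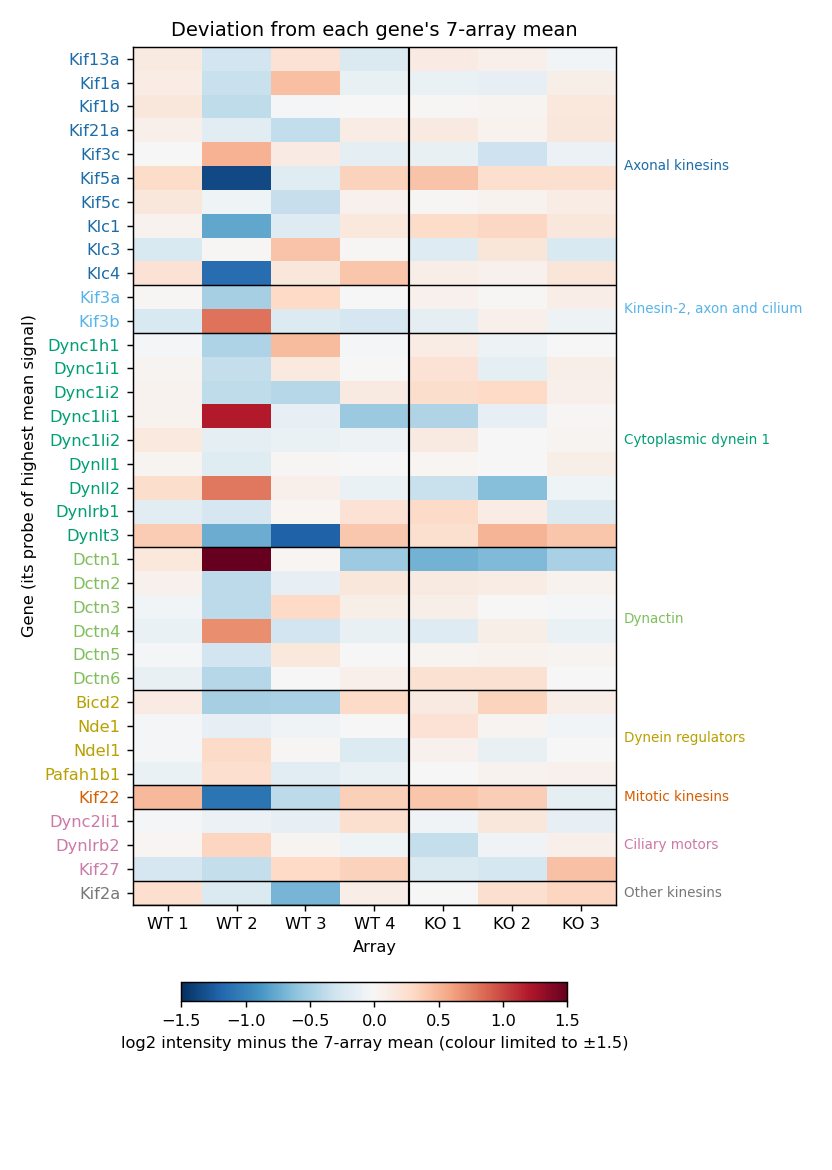
Log2 intensity of each of the 36 measured motor genes on each array as the deviation from that gene's mean over the 7 arrays (red above, blue below, colours limited to 1.5 either way), with genes grouped by role and a line between wild-type (WT) and knockout (KO) arrays. The highest cell (Dctn1) and the lowest (Kif5a) are on wild-type array 2, where Klc4 and Kif22 are also low and Dync1li1 high, and Dynlt3 is low on wild-type array 3.

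Genes that work with the motors were measured as 2 further lists. Of the adaptors, cargo linkers and other partners of cytoplasmic motors, 24 of 30 on the array were measured, 13 with a higher mean and a median difference of 0.03. At an unadjusted p under 0.05 there were 0 of these 24, beside 4.2% of all tested probes. Without wild-type arrays 2 and 3 there was 1 of the 23 still tested, beside 4.04%. Actr1a, the actin-related filament of dynactin, read 1913, 2524, 2055 and 1567 in the wild-type mice and 1552, 1533 and 1535 in the knockout mice, with every knockout array below every wild-type array and a difference of -0.37 (SE 0.18, leave-out values -0.25 and -0.17) at an adjusted limma p of 0.754. Mapk8ip1, a scaffold that binds kinesin light chains, read 2122, 3534, 2722 and 1994 in the wild-type mice and 1937, 1859 and 1929.8 in the knockout mice, also without overlap, and differed by -0.40 (SE 0.21, leave-out values -0.24 and -0.11). Separation of the groups held for 2 of these 24 genes, beside 7.39% of all tested probes, and is not read as particular to them. In the higher direction Zfyve27, which takes kinesin to membranes of the growing neurite, differed by 0.44 (SE 0.25, leave-out values 0.43 and 0.10) and Fez1, a kinesin adaptor, by 0.34 (SE 0.19, leave-out values 0.19 and 0.12). Of the axonemal and intraflagellar transport partners, 15 of 25 were measured and 11 had higher means, with a median of 0.09. At an unadjusted p under 0.05 there were 4 of these 15, beside 4.2% of all tested probes, and 0 passed the adjusted threshold. The dynein 2 intermediate chain gene Wdr60 read 173, 102, 155 and 221 in the wild-type mice and 291, 230.0 and 219 in the knockout mice and differed by 0.64 (SE 0.26, leave-out values 0.44 and 0.32), and Ift80, a subunit of the anterograde train, by 0.76 (SE 0.34, leave-out values 0.65 and 0.22) without passing that p. Dnaic1, an intermediate chain of the outer dynein arm of motile cilia, read 173, 161, 212 and 127 in the wild-type mice and 130.1, 103 and 118 in the knockout mice and differed by -0.51 (SE 0.20, leave-out values -0.52 and -0.35). Dnali1, a light intermediate chain of the inner arm, differed by -0.55 (SE 0.23, leave-out values -0.39 and -0.40) and Ift122, a subunit of the retrograde ciliary train, by -0.50 (SE 0.22, leave-out values -0.50 and -0.26). Dnali1 lay near the floor, and its readings on knockout arrays 1 and 3 (15.5 and 12.6) were set to 16. The adjusted limma p of all 4 was 0.754. The count of the 15 was 3 without wild-type array 2, beside 5.33% of all tested probes, and 0 without wild-type arrays 2 and 3, beside 4.04%.

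Markers of the brain's cell types did not pass an adjusted p either. At an unadjusted p under 0.05 there were 6 of 56 markers (10.7%), beside 4.2% of all tested probes, and 3 markers without wild-type array 2, beside 5.33%. Without wild-type arrays 2 and 3 there were also 3, beside 4.04%. By list, without wild-type array 2 these were 1 microglial and 2 choroid plexus genes, and 0 ependymal and 0 astrocyte genes. Higher means in knockout were found for 2 of 7 ependymal, 4 of 5 proliferation, 4 of 11 neuronal, 4 of 9 oligodendrocyte, 3 of 9 astrocyte, 4 of 8 microglial and 2 of 7 choroid plexus markers. Their median differences were, in the same order, -0.13, 0.24, -0.02, -0.04, -0.17, 0.01 and -0.07. Without wild-type array 2 they were -0.16, 0.23, -0.06, -0.10, -0.06, -0.11 and -0.06. The proliferation median of 0.24 was the value of Birc5, which lay at the floor. Birc5 read 17.3, 9.35, 12.2 and 13.7 in the wild-type mice and 16.6, 21.3 and 20.1 in the knockout mice. Plk1 also read under 16 on wild-type arrays 2 and 3. The higher proliferation means are therefore not read as a difference. The mean deviation of the 7 ependymal markers ran from -0.08 to 0.14 on the wild-type arrays and from -0.13 to 0.12 on the knockout arrays. Rsph9, a radial spoke gene, differed by -0.49 (SE 0.21, leave-out values -0.47 and -0.21) and Zmynd10, needed to assemble dynein arms, by 0.64 (SE 0.26, leave-out values 0.56 and 0.51). Zmynd10 lay near the floor, and its readings on wild-type arrays 1 and 2 (15.4 and 7.74) were set to 16. Outside the ependyma, the genes past an unadjusted p of 0.05 were Fgfr3 of astrocytes, at -0.55 (SE 0.24, leave-out values -0.40 and -0.20), Aif1 of microglia, at -0.57 (SE 0.24, leave-out values -0.62 and -0.35), and Folr1 and Clic6 of the choroid plexus. Folr1, a folate receptor, read 32.8, 52.3, 73.8 and 35.4 in the wild-type mice and 22.6, 15.2 and 16.4 in the knockout mice and differed by -1.35 (SE 0.30, leave-out values -1.28 and -0.91), with its knockout readings close to the floor. Clic6, an ion channel gene, read 474, 454, 455 and 449 in the wild-type mice and 394, 356 and 365 in the knockout mice and differed by -0.30 (SE 0.13, leave-out values -0.31 and -0.31). In Folr1, Clic6, Aif1 and Rsph9 the groups did not overlap. Such separation held for 2 of 7 choroid plexus, 2 of 7 ependymal, 1 of 8 microglial and 1 of 11 neuronal markers. It held for 0 markers of the other lists, beside 7.39% of all tested probes. The part of ependymal or choroid plexus content in the values of the ciliary motors and their partners was not tested.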

How the data were processed

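Total brain RNA of 7 mice was read on Illumina arrays, 1 array per mouse. The deposited values used are intensities on a linear scale, made by the authors with GenomeStudio 2011.1, per the submitters' processing notes; that they are background-subtracted and normalized between arrays is read from the values, since negative intensities occur and the array medians lie between 14.56 and 14.62. The 7 signal columns of a further deposited table match no sample label and were not used, so the planned fit on it was not run. Gene names come from the platform annotation, which gave 1 symbol for 23978 probes and none for 1719.

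Intensities under 16 were set to 16, and 12833 probes above 16 on at least 3 arrays entered lmFit and eBayes (limma 3.58.1, R 4.3.3) with genotype as the only term, two-sided, and p-values were adjusted by Benjamini-Hochberg over all tested probes. Each gene was represented by its tested probe of highest mean signal. Exact permutation tests over 35 splits, two-sided, were run for single probes. The fit was tested on simulated data with planted changes. The simulated arrays had independent noise of equal spread and no floor, so that test does not cover an outlying array or readings near the floor. Figures were drawn with matplotlib 3.10.9. The number of arrays limits the precision, with a median SE of 0.21 on the log2 scale.

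The members, role lists and marker lists were chosen with earlier results of these data known. Most genes given with their readings were named by a rule. It took in each role list up to 3 genes per direction with the smallest unadjusted p, and up to 2 per direction in the partner and marker lists. Further genes were named outside this rule, among them Dynll1, Kif1b, Kif5c, Klc4, Dync1h1, Ift122 and Rsph1. Alternatives were lower and higher floors, no or a stricter filter, quantile normalization, median centring, an intensity trend, array weights, a replicate block, the mean over probes and fits without single arrays or without wild-type arrays 2 and 3. Promoters are from RefSeq (GRCm38.p6). Protein sequences were not used here.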

Additional observations from a re-analysis of the deposited data

Results flagged for a closer look

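On 3 of 36 motor genes, 1 of the 4 wild-type arrays lay far from the other wild-type arrays by Dixon's test. Each time it was wild-type array 2. Chance alone flags about 1 in 20, but the share flagged over all tested probes was not counted. Wild-type array 2 lay beyond every other array at 66.1% of all tested probes, so the 3 flags are not read as particular to motor genes. The log2 intensity on wild-type array 2 was 6.31 for Klc4, with 7.61 to 7.86 in wild-type mice 1, 3 and 4. For Kif3b it was 5.98, against 4.92 to 4.96. For Pafah1b1 it was 8.26, against 7.84 to 7.91. The mean deviation of the axonal motors on wild-type array 2, -0.40, stood apart from the other wild-type arrays in the same way. So did that of the 4 dynein regulators on wild-type array 3, -0.17, with -0.01, -0.02 and -0.01 in mice 1, 2 and 4.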

How the results depend on the processing

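No motor gene passed an adjusted p of 0.05 under any alternative run. Over all probes 0 passed in the main comparison, 0 under every other alternative and 28 with array weights. The count of motor genes past an unadjusted p of 0.05, 1 in the main comparison, was 4 of 36 with array weights (Dynll2, Dctn1, Dctn6 and Klc1), 4 with the replicate block (Dctn1, Dynlt3, Dynll2 and Kif5a), 0 without a filter (beside 2.01% of all probes), 0 without wild-type arrays 2 and 3 (beside 4.04%), and 0 to 5 when each array was left out in turn. The low count came without knockout array 1 or 2 (beside 1.91% and 1.24% of all tested probes) and the high one without wild-type array 4 (13.9% beside 12.8%). Each gene was counted at its brightest probe. The dim probes of Dynll2 and Dctn2, past an unadjusted limma p of 0.05 without wild-type arrays 2 and 3, are therefore not among these counts. The count over all probes, 539, went to 2649 with array weights (20.6%), to 1535 with the replicate block and from 157 to 1626 with an array left out. The counts did not always move together: without wild-type array 3 the motor count stayed at 1 and the count over all probes was 290. Same-numbered arrays did not deviate together (correlations 0.08, -0.13 and -0.04), and no wild-type array correlated best with its own number, so the number was not taken as a pairing. No knockout array shares the number of wild-type array 4, so the differences with the replicate block equal those without that array. These alternatives are therefore not separate checks of a sign. The ciliary median lay between -0.26 and 0.0737 with an array left out. Without wild-type arrays 2 and 3 the axonal median went from 0.12 to -0.01 and the mitotic value from 0.38 to -0.20, so both changed sign. Of the 26 motor genes named by the rule, 11 kept their sign under every alternative run for them. With array weights the sign turned for Dctn4 (0.0603), Dync1li2 (-0.0676), Dync2li1 (0.0335), Kif22 (-0.15), Kif27 (0.0773), Kif3b (0.19), Klc3 (0.14), Ndel1 (0.0108). With the replicate block the sign turned for Dync2li1 (0.0737), Kif27 (0.0832). With a floor of 32 the sign turned for Kif27 (0.0308). Without wild-type arrays 2 and 3 the sign turned for Bicd2 (-0.0191), Dctn2 (-0.0169), Dctn4 (0.0358), Dync1li1 (0.0689), Dynlt3 (-0.0038), Kif22 (-0.20), Kif3b (0.19), Klc3 (0.0234), Ndel1 (0.10). With the mean over probes the sign turned for Kif3a (-0.19), Nde1 (-0.12). With each array left out in turn, the range of the difference crossed 0 for Dctn4 (-0.23 to 0.0992), Dync1li1 (-0.56 to 0.0271), Dync2li1 (-0.091 to 0.0737), Kif1a (-0.19 to 0.0698), Kif27 (-0.26 to 0.0959), Kif3a (-0.0421 to 0.22), Kif3b (-0.17 to 0.18) and Ndel1 (-0.11 to 0.0577). For Dynll2 the limma adjusted p over the alternatives in which it passed the unadjusted threshold ran from 0.0849 to 0.859. The cause of the changes of sign was not tested. Genes near the floor, such as Klc3 and Kif27, are limited by their signal over background. The planned normalization of the bead signals (normexp and quantile) was not run, since their columns match no sample label.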
